A study of Homo sapiens with 21 samples.

Results

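The genes described here are 10 members of the BCL2 family, which control whether a cell under stress opens its mitochondria and dies by apoptosis. They were chosen by symbol, BCL2, BCL2L1 and MCL1 (guardians against death), BAX and BAK1 (the effectors), and BCL2L11, BMF, BID, BBC3 and PMAIP1 (the BH3-only members that start the process). All 10 were found among the 20111 genes listed for each experiment. As background, BAX and BAK1 form the pores in the outer mitochondrial membrane through which cytochrome c leaves. The guardians bind and hold them back, and BH3-only proteins either occupy the guardians or switch on the effectors directly. In lung cancer cells that depend on mutant EGFR, blocking EGFR raises the BH3-only protein BIM, the product of BCL2L11, and cells short of BIM are known to survive the drugs better.

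The RNA came from PC-9, an established human lung adenocarcinoma line that needs its own mutant EGFR, and every group carries the EGFR deletion of that line. In the untreated experiment, parental cells were set beside EGFR-low and EGFR-high cells, which had been taken from the parental line by 6 rounds of sorting for total EGFR with gates of 5 to 10%, and all were harvested 24 h after seeding. In the vorinostat experiment, EGFR-low and EGFR-high cells received either DMSO, the solvent, or 1 µM vorinostat, an inhibitor of histone deacetylases, for 72 h. Each of the 7 groups had 3 libraries, 21 in all, made from polyadenylated RNA. The sorted cells are populations and not single clones, and each sorted population was made from this line alone, so the libraries are repeats within 1 line. Levels are given in FPKM, in which fragments are divided by transcript length and by the mapped total of the library, so levels of different genes can be set side by side. The number of reads behind a value is unknown, so low values are given as listed. The experiments were tabulated and normalised separately, so tests were made only within each of them.

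Some libraries stood apart from the rest of their group. In the untreated experiment, libraries grouped partly by replicate number. On principal component 1 (36.4% of the variance) the replicate 2 libraries of all 3 groups scored -34.0 to -28.4, and the others -12.3 to 56.0. EGFR-low cells were parted from the rest only on principal component 3 (21.5%), at 28.3 to 29.9 against -27.7 to 1.27. Across genes, parental replicate 1 correlated with EGFR-high replicate 1 at 0.988 and with parental replicate 2 at 0.941, and parental replicate 2 correlated with EGFR-high replicate 2 at 0.983. This spread enters every untreated comparison below. In the vorinostat experiment, the main axis of variation over all tested genes (principal component 1, 82.5% of the variance) separated EGFR-low from EGFR-high cells. EGFR-low DMSO replicate 1 scored -25.6 on it where the other EGFR-low libraries scored -66.7 to -61.6, and EGFR-high DMSO replicate 3 scored 26.3 where the other EGFR-high libraries scored 59.4 to 67.2. These DMSO libraries therefore lay between the lines, and they will be called the intermediate DMSO libraries. Single genes, chosen after their values were seen, showed the same: GATA3 was at 3.90, 0.0605 and 0.0398 FPKM in EGFR-low DMSO cells, and MT1E was at 0.273, 0.252 and 59.9 FPKM in EGFR-high DMSO cells. The lymphocyte marker CD3E was at 0.937 and 0.290 FPKM in the intermediate libraries and at no more than 0.0447 FPKM in any other, and the leukocyte marker PTPRC was at 0.805 and 0.2 FPKM in them and at no more than 0.0524 FPKM elsewhere. What these libraries hold besides the labelled cells was not tested.

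A further pair of libraries stood apart within the drug-treated groups. On principal component 2 (6.53% of the variance), replicate 1 of the EGFR-low vorinostat group scored 23.1 and replicate 1 of the EGFR-high vorinostat group scored 47.5, against -13.1 to 0.0469 for the other 10 libraries. Mitochondrial genes held 22.2 and 24.2% of the FPKM in this pair and 7.27 to 18.6% in the others. CDKN1A, a cell cycle inhibitor induced by many stresses, was at 21.7, 1.79 and 3.25 FPKM in EGFR-high vorinostat cells and at 3.62, 3.17 and 8.93 FPKM in EGFR-high DMSO cells. The same gene set the EGFR-low library apart far less, at 27.6, 15.3 and 17.5 FPKM in vorinostat and 18.6, 17.5 and 20.1 FPKM in DMSO. Across genes, which are not independent replicates, EGFR-low vorinostat replicate 2 correlated with EGFR-low DMSO replicate 2 at 0.997 and with vorinostat replicate 1 at 0.978. In the EGFR-high line the same correlations were 0.990 and 0.953. Replicate 3 of the vorinostat groups gave 0.995 and 0.977 in the EGFR-low line and 0.989 and 0.951 in the EGFR-high line. Replicates 2 and 3 of the vorinostat groups were therefore closer to DMSO replicate 2 of their line than to their own replicate 1. Whether every library was treated as its label says was not tested, and this bears on every vorinostat value below.

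**Figure D1:**
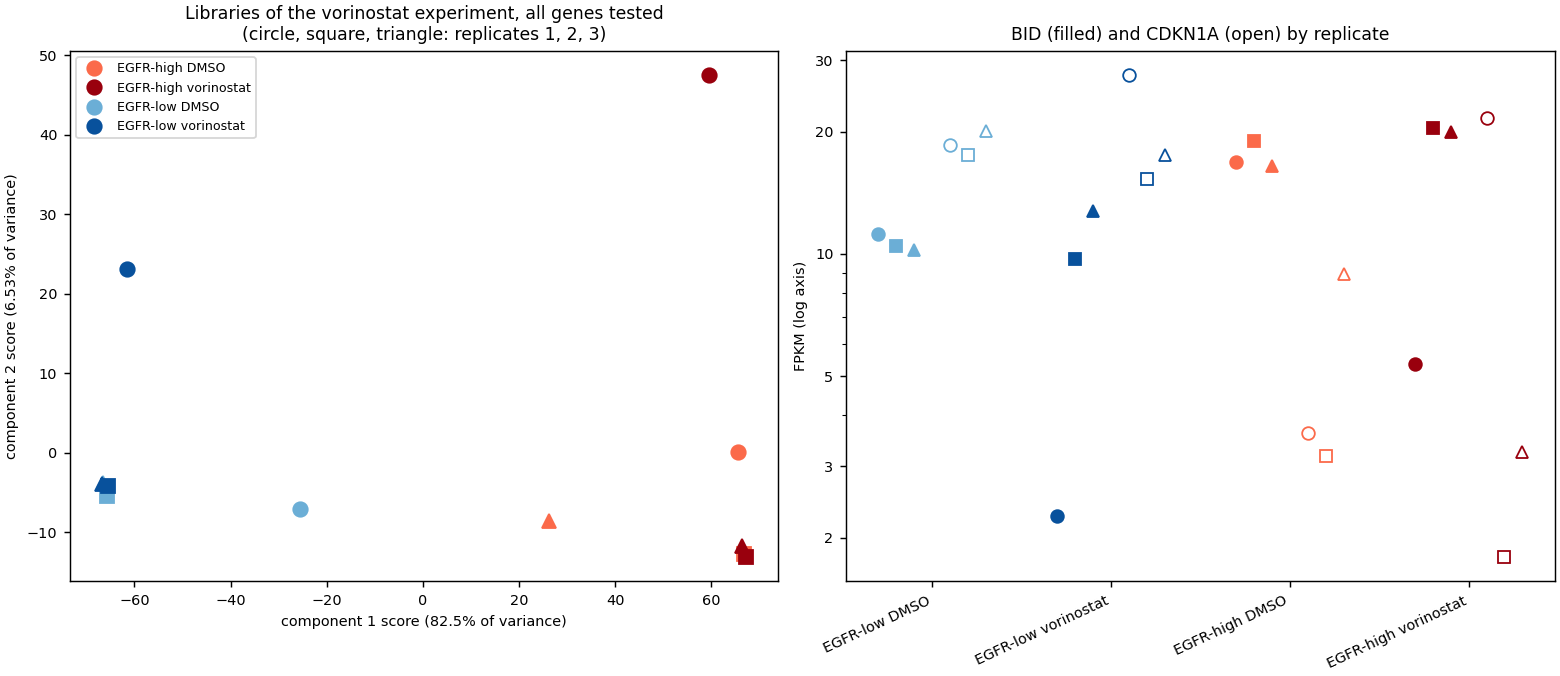
Where each library of the vorinostat experiment lay. The left panel plots principal component 1 against principal component 2 over all tested genes, with 1 point per library, and the right panel plots BID (filled) and CDKN1A (open) in each library on a log FPKM axis. Replicate 1 of each vorinostat group sits highest on principal component 2, and BID was at 2.27 and 5.35 FPKM in that pair.

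The line labels, and not the drug labels, were checked against the gene that defines them. EGFR itself was at 60.2, 26.5 and 60.6 FPKM in untreated EGFR-low cells, 269.1, 160.5 and 243.1 FPKM in EGFR-high cells and 260.9, 120.1 and 243.8 FPKM in parental cells. The EGFR-low libraries lay below all others, with a log2 fold change of -2.23 against EGFR-high cells (SE 0.40, limma adjusted p = 0.011). In the vorinostat experiment EGFR was again lower in the EGFR-low line, by a log2 fold change of -2.13 in DMSO and -3.09 in vorinostat. Between vorinostat and DMSO it was not called in either line, with a log2 fold change of -0.44 in EGFR-low cells (95% interval -1.20 to 0.33) and 0.52 in EGFR-high cells (95% interval -0.25 to 1.28). In EGFR-low cells EGFR was at 43.31, 17.71 and 19.35 FPKM in DMSO and 19.7, 16.07 and 18.2 FPKM in vorinostat. The highest of these was the intermediate DMSO library, so the negative value in this line rests largely on it. The 6 epithelial markers summed to 1552 to 4045 FPKM and none was listed at 0 in any library. KRT8 was the most abundant of them in most libraries, and KRT7 in 5 of the 6 EGFR-low libraries of the vorinostat experiment. Within that list, KRT8, KRT19 and KRT18 were lower and CDH1 was higher in EGFR-low DMSO cells than in their EGFR-high counterparts, with log2 fold changes of -1.46, -1.31, -0.94 and 1.06.

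Markers of other cell types summed mostly to a single gene in each list. The 5 fibroblast markers summed to 1.02 to 5.88 FPKM, nearly all of it COL1A1, and at least 2 of the 5 were listed at 0 in every library. The largest part outside COL1A1 was in EGFR-high DMSO replicate 3, an intermediate library, with COL1A2 at 0.408 FPKM, where the other libraries of that experiment had no more than 0.0632 FPKM. The 4 immune markers summed to 14.7 to 39.3 FPKM, most of it CD68, which epithelial lines also express. In EGFR-low DMSO replicate 1, the other intermediate library, the sum was 23.8 FPKM with CD68 at 21.9 FPKM, the rest being mostly the CD3E and PTPRC given above. The endothelial markers that could be matched, 2 of 3, summed to 2.23 to 8.30 FPKM, nearly all of it CDH5, while VWF stayed at or under 0.0898 FPKM. The genes of these 3 lists abundant enough to be tested, COL1A1, CD68 and CDH5, were not called by limma in any comparison. In untreated EGFR-low cells COL1A1 and CDH5 nonetheless had an unadjusted p under 0.05 against both other groups. COL1A1 had log2 fold changes of 0.83 against EGFR-high and 0.94 against parental cells (adjusted p = 0.319 and 0.248), and CDH5 had 0.82 and 0.97 (adjusted p = 0.103 and 0.0802). CDH5 was at 8.30, 5.59 and 6.71 FPKM in EGFR-low cells and at no more than 4.26 FPKM in the other untreated libraries. The BMF rise described below is in the same EGFR-low libraries, and the part of these markers in it was not tested. CD68 had an unadjusted p under 0.05 between the lines in DMSO (log2 fold change -0.52, adjusted p = 0.0777).

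The family was expressed at very unequal levels. In EGFR-low DMSO cells the guardians MCL1 and BCL2L1 stood at 95.9 ± 4.91 and 73.3 ± 15.6 FPKM (mean ± SD, n = 3), and the guardian BCL2 at 0.473 ± 0.361 FPKM. The effector BAX stood at 63.6 ± 6.38 FPKM and its partner BAK1 at 9.17 ± 0.966 FPKM. Among BH3-only genes, PMAIP1 was the most abundant at 30.5 ± 2.53 FPKM and BBC3 the least at 6.82 ± 1.01 FPKM. All 10 genes passed the filter of at least 1 FPKM in at least 3 libraries in both experiments. BCL2 did so in the vorinostat experiment only through the 6 EGFR-high libraries, and BBC3 in the untreated experiment through 3 of 9 libraries, where its values ran from 0.106 to 1.49 FPKM.

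**Figure D2:**
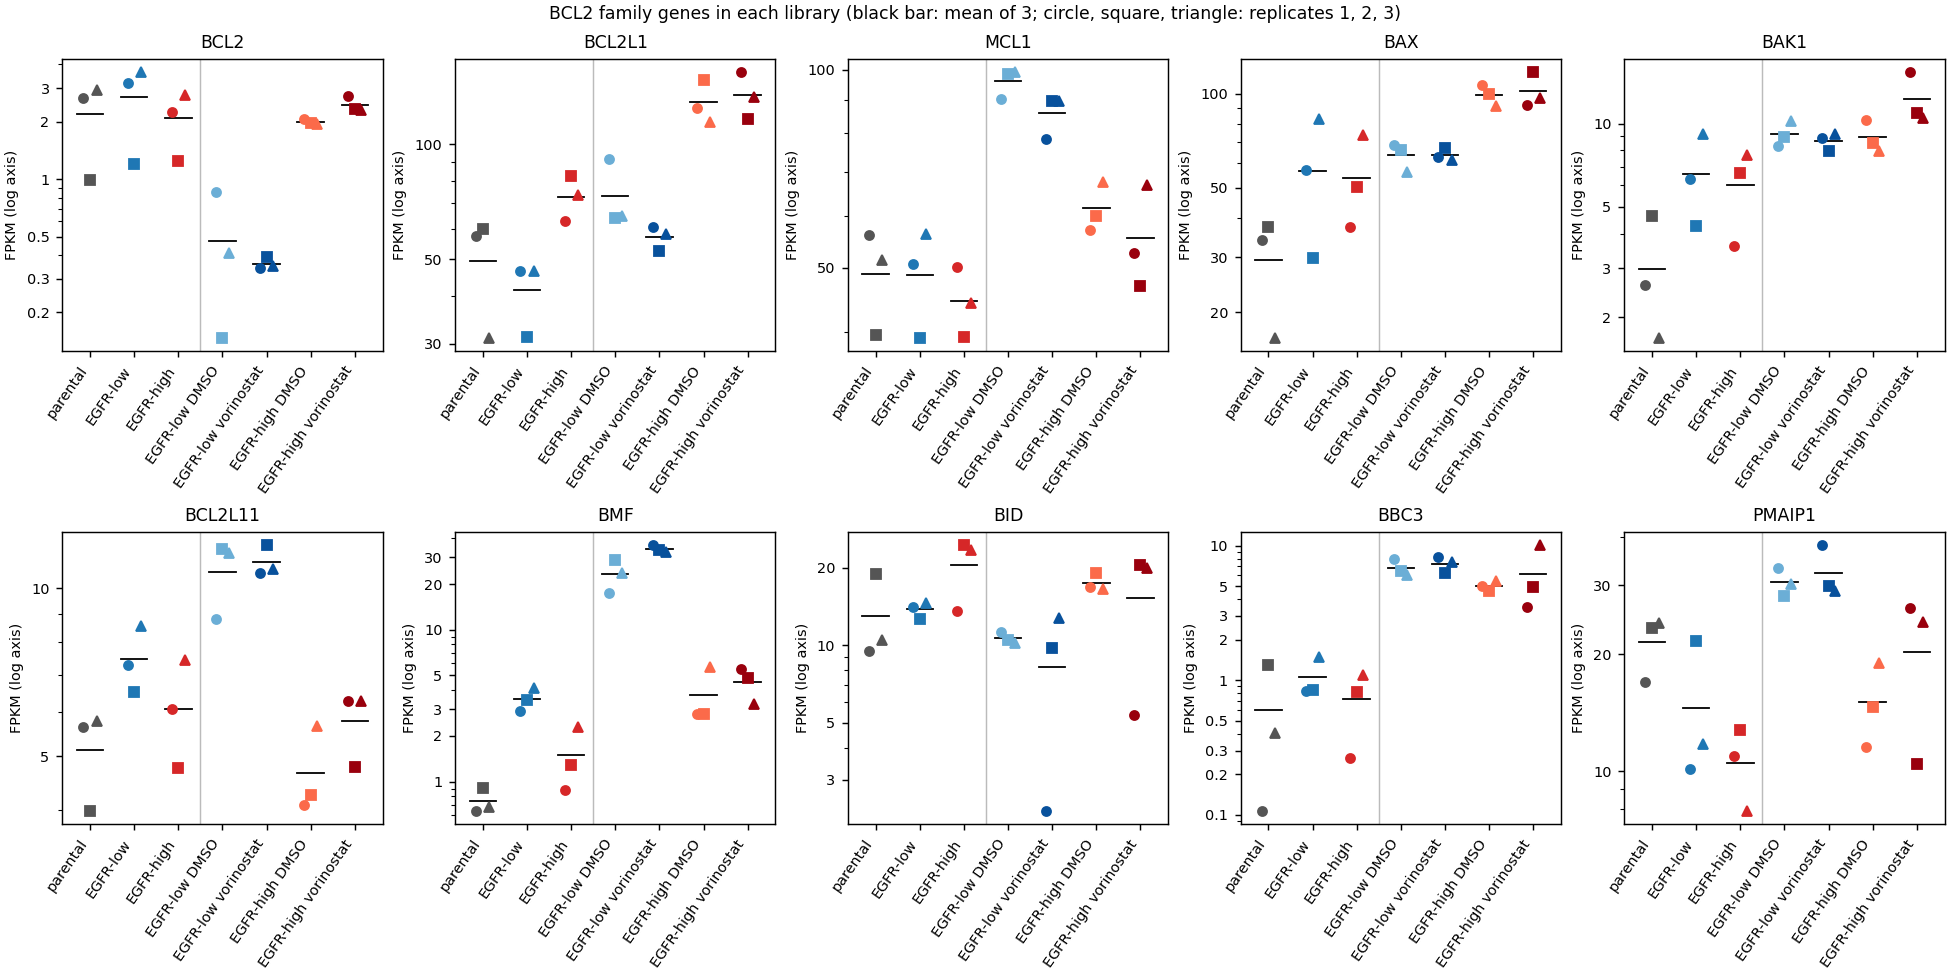
Level of each of the 10 genes in every library. Each panel is a gene, the vertical axis is FPKM on a log scale, each point is a library and each bar is the mean of its group. BMF shows the widest gap between EGFR-low and EGFR-high cells, with 17.5 to 35.9 FPKM against 2.77 to 5.64 FPKM in the vorinostat experiment.

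The promoters of 6 genes are shown because these genes differed between the lines in both DMSO and vorinostat, BCL2L11, BMF and PMAIP1 upward and BCL2L1, BCL2 and BAX downward, as described below. They were chosen after the values were seen. RefSeq (GRCh38.p14) gave a promoter for 9 of the 10 genes, matched by symbol, and none for MCL1, which also differed in both. Each sequence is the 250 bases before the outermost start of the gene, on the strand of the gene. They lie at chr2:111120664-111120913 (+) for BCL2L11, chr15:40108880-40109129 (-) for BMF, chr18:59899746-59899995 (+) for PMAIP1, chr20:31723964-31724213 (-) for BCL2L1, chr18:63319770-63320019 (-) for BCL2 and chr19:48954625-48954874 (+) for BAX. Capitals mark the motifs found.
BCL2L11: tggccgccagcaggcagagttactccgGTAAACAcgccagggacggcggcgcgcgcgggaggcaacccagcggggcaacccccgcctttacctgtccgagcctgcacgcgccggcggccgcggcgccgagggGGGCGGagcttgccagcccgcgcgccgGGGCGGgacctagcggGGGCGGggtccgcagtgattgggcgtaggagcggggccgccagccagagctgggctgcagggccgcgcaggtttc
BMF: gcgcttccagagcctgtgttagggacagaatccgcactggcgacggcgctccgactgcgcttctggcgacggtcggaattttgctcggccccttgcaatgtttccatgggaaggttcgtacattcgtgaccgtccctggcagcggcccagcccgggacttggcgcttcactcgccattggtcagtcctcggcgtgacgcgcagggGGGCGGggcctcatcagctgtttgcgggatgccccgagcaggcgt
PMAIP1: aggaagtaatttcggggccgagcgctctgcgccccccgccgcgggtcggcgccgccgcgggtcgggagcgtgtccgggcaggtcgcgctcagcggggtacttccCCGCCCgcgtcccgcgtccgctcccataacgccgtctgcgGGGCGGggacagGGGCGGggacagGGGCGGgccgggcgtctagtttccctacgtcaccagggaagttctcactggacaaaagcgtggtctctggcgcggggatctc
BCL2L1: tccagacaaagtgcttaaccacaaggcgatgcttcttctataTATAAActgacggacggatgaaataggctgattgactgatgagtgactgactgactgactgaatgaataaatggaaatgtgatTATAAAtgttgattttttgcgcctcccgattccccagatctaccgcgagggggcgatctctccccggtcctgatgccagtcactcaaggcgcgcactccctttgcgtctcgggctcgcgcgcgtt
BCL2: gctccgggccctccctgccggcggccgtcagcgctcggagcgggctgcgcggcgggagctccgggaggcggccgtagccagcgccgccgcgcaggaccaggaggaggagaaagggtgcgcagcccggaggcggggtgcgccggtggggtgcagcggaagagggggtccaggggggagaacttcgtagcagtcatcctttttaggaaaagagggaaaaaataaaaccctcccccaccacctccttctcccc
BAX: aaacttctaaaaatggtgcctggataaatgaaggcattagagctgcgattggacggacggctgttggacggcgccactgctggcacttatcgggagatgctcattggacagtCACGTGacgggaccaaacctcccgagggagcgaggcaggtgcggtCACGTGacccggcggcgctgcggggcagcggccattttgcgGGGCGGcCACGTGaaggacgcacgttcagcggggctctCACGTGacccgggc
The motifs searched on both strands, none of which contains another, were GGGCGG (a GC box), GTAAACA (forkhead), CACGTG (E-box), TGANTCA (AP-1), TGACGTCA (CRE) and TATAAA, the letters of a TATA box. BCL2L11 held 3 GC boxes and 1 forkhead motif, BMF held 1 GC box, PMAIP1 held 4 GC boxes, BCL2L1 held 2 TATA motifs, BAX held 1 GC box and 4 E-boxes, and BCL2 held none of the 6. Of 35116 promoters of the same length, 42.6% held a GC box, 2.98% the forkhead motif and 10.7% the TATA motif. The E-box, AP-1 and CRE motifs were in 6.34, 6.57 and 1.65% of them. A match describes letters in this window and is not evidence that a factor binds there.

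BMF set the untreated EGFR-low cells apart from the parental line. BMF encodes a BH3-only protein that is held on the actin motor machinery and released when a cell loses its attachment. It was at 0.639, 0.901 and 0.682 FPKM in parental cells, 2.91, 3.46 and 4.11 FPKM in EGFR-low cells and 0.886, 1.29 and 2.31 FPKM in EGFR-high cells. The EGFR-low libraries were the highest 3 of the 9, with no overlap with either other group. Its mean was 4.72 times that of parental cells, and the log2 fold change on log2(FPKM + 1), which the added 1 makes smaller at such low levels, was 1.36 (SE 0.23, limma adjusted p = 0.0137). BMF was the only 1 of the 10 genes called against parental cells, where 1.60% of all 11305 tested genes were called and 0.831% were called higher. It reached 1 FPKM in 5 of the 9 libraries, all 3 EGFR-low, 2 EGFR-high and no parental one, so it passed the filter through the group where it was high, and with no filter it was called as well (adjusted p = 0.0237). The other gene with an unadjusted p under 0.05 was BAK1 (log2 fold change 0.95, adjusted p = 0.25), and 1668 of all genes had one too. The call was lost without parental replicate 1 or 3 (adjusted p = 0.0728 and 0.0509) and without EGFR-low replicate 1 or 3 (adjusted p = 0.0626 and 0.0915), within a range of 0.00935 to 0.0915 over all alternatives. In bulk RNA, fewer cells expressing a gene and less RNA per cell cannot be told apart.

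When EGFR-low cells were set against EGFR-high cells without treatment, limma called 0 of the 10 genes, where it called 3.81% of all genes, and 2 of the 10 and 1529 of all genes had an unadjusted p under 0.05. Those 2 were BMF and BCL2L1, which were also the 2 genes whose libraries did not overlap, against 20.6% of all genes. For BMF the log2 fold change was 0.88 (95% interval 0.37 to 1.39, adjusted p = 0.0656, exact permutation p = 0.1, the smallest that 3 libraries against 3 can give). Same-numbered libraries of these groups deviated together, and once replicate number entered the fit as a block BMF passed the test (adjusted p = 0.028) and the calls over all genes went from 431 to 965. BMF also passed with median-of-ratios scaling (adjusted p = 0.043), quantile normalization (0.0282), a pseudocount of 5 (0.0462) and without EGFR-high replicate 3 (0.0376), in a range of 0.028 to 0.257. Its log2 fold change ran from 0.39, with the pseudocount of 5, to 1.26 over the alternatives in which BMF was tested. Whether BMF differed between these lines before treatment thus depended on the fit.

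BCL2L1, which encodes the guardian BCL-XL, was at 46.6, 31.3 and 46.5 FPKM in untreated EGFR-low cells and at 62.8, 82.4 and 73.4 FPKM in EGFR-high cells. The EGFR-high libraries were all above the EGFR-low ones, with parental cells at 57.5, 60.1 and 31.1 FPKM. Its log2 fold change of EGFR-low against EGFR-high cells was -0.81 (95% interval -1.48 to -0.15, adjusted p = 0.23), which did not pass. BCL2L11 was at 7.28, 6.51 and 8.58 FPKM in EGFR-low cells, 6.06, 4.76 and 7.42 FPKM in EGFR-high cells and 5.63, 3.98 and 5.78 FPKM in parental cells. The EGFR-low and EGFR-high libraries overlapped, and the EGFR-low libraries were above all parental ones. Its log2 fold change was 0.27 against EGFR-high cells (95% interval -0.26 to 0.79, adjusted p = 0.775) and 0.47 against parental cells (95% interval -0.05 to 0.99, adjusted p = 0.378). BCL2L11 and BMF were the 2 genes that did not overlap with parental cells, against 17.1% of all genes.

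EGFR-high cells differed from parental cells in none of the 10 genes by limma, where 0.0708% of all genes were called and 2 of the 10 genes, PMAIP1 and BAK1, and 1093 of 11305 genes had an unadjusted p under 0.05. BAK1 overlapped, with a log2 fold change of 0.83 (adjusted p = 0.507). PMAIP1, which encodes NOXA, a BH3-only protein that binds mainly MCL1, was at 10.9, 12.8 and 7.91 FPKM in EGFR-high cells and 17.0, 23.3 and 24.0 FPKM in parental cells. Its libraries did not overlap, and its log2 fold change was -0.97 (adjusted p = 0.507). The other gene without overlap was BCL2L1 (log2 fold change 0.60, adjusted p = 0.507), against 16.2% of all genes. The remaining genes overlapped in every untreated comparison, among them MCL1 at 39.1 to 56.3 FPKM, BAX at 16.6 to 82.8 FPKM and BAK1 at 1.68 to 9.14 FPKM over the 9 libraries.

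In the vorinostat experiment more genes passed between the same lines. The experiments were not tested against each other, and the spread differed as well as the change: BCL2L1 had a log2 fold change of -0.82 with an SE of 0.16 in DMSO, beside -0.81 with an SE of 0.30 in untreated cells. Under DMSO, 4 of the 10 genes were higher and 3 were lower in EGFR-low cells when set against EGFR-high cells. Over all 12236 tested genes, 51.8% were called, 31.1% higher and 20.7% lower, so 7 of 10 is to be read against a background in which most genes were called. The libraries of the lines did not overlap for 9 of the 10 genes, all but BAK1, and for 69.3% of all genes. The median log2 fold change of all genes was 0.12 and became 0.01 with median-of-ratios scaling, which also took the share of calls that were higher from 60.1 to 50.3%. The 7 calls and their directions were kept under that scaling.

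Among the BH3-only genes, BMF showed the widest difference. It was at 17.5, 28.8 and 23.5 FPKM in EGFR-low DMSO cells and at 2.77, 2.78 and 5.64 FPKM in EGFR-high DMSO cells. All EGFR-low libraries were above all EGFR-high libraries, and the intermediate DMSO libraries were those nearest the other line, at 17.5 and 5.64 FPKM. The mean was 6.24 times higher in EGFR-low cells, with a log2 fold change of 2.39 (SE 0.25, adjusted p = 0.000327) that was 2.84 without both intermediate libraries, an alternative added after seeing the data. These levels were also above the 2.91 to 4.11 FPKM of untreated EGFR-low cells, a difference between experiments that was not tested.

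BCL2L11 was at 8.81, 11.8 and 11.6 FPKM in EGFR-low DMSO cells and at 4.08, 4.26 and 5.65 FPKM in EGFR-high DMSO cells. The groups did not overlap, and the intermediate libraries were again nearest the other line. The log2 fold change was 1.05 (SE 0.16, adjusted p = 0.000413), and 1.29 without both intermediate libraries. RNA for BIM thus stood at 2.30 times the EGFR-high level in the EGFR-low DMSO cells, beside 1.23 times in untreated cells, where it was not called. The paper reports reduced BIM in EGFR-low cells on blots, which measure protein and not RNA. PMAIP1 was at 33.2, 28.2 and 30.2 FPKM in EGFR-low DMSO cells and 11.5, 14.6 and 18.9 FPKM in EGFR-high DMSO cells. Its groups did not overlap, and its log2 fold change was 1.00 (SE 0.29, adjusted p = 0.0123). Without EGFR-high DMSO replicate 1 the PMAIP1 call was lost (adjusted p = 0.0545, the highest over its alternatives, from 0.00103).

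The guardians did not move together. MCL1, a short-lived protein that NOXA targets, was at 90.3, 98.5 and 99.0 FPKM in EGFR-low DMSO cells and at 57.1, 60.0 and 67.5 FPKM in EGFR-high DMSO cells, with a log2 fold change of 0.63 (SE 0.13, adjusted p = 0.00218). BCL2L1 went the other way, at 91.3, 63.9 and 64.7 FPKM against 124.4, 147.1 and 114.5 FPKM, a log2 fold change of -0.82 (SE 0.16, adjusted p = 0.00151). Neither gene overlapped between the lines, and for both the intermediate libraries were nearest the other line. BCL2, the founding member, was at 0.862, 0.147 and 0.410 FPKM in EGFR-low DMSO cells and at 2.06, 1.98 and 1.94 FPKM in EGFR-high DMSO cells, a log2 fold change of -1.05 (SE 0.16, adjusted p = 0.000464). BCL2 was thus under 1 FPKM in all 3 EGFR-low libraries, and it passed the filter only through EGFR-high libraries, though with no filter it was called as well (adjusted p = 0.00104). Its fitted fold change depended on the pseudocount and ran from -2.08 to -0.36 over the alternatives in which BCL2 was tested, all of them called. Untreated cells did not show this: BCL2 was at 3.21, 1.20 and 3.63 FPKM in EGFR-low and 2.26, 1.25 and 2.75 FPKM in EGFR-high cells, a log2 fold change of 0.22 (95% interval -0.56 to 0.99) that was not called.

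Of the effectors, BAX was lower in EGFR-low DMSO cells and BAK1 was not called. BAX was at 68.3, 66.2 and 56.3 FPKM against 106.5, 99.8 and 91.3 FPKM, without overlap, and its log2 fold change was -0.64 (SE 0.12, adjusted p = 0.00126). BAK1 was at 8.33, 8.96 and 10.2 FPKM against 10.4, 8.48 and 7.98 FPKM, with a log2 fold change of 0.04 (95% interval -0.31 to 0.38, adjusted p = 0.861) whose sign turned with median-of-ratios scaling. BID, which links death receptors to mitochondria once caspase-8 has cut it, was at 11.2, 10.5 and 10.2 FPKM in EGFR-low DMSO cells and 16.9, 19.0 and 16.5 FPKM in EGFR-high DMSO cells. The BID groups did not overlap, yet its log2 fold change of -0.67 had an SE of 0.52 (adjusted p = 0.301), because the fit shares its spread with the vorinostat groups described below. BID passed when the fit held only these groups (adjusted p = 0.00402) and without replicate 1 of both vorinostat groups (0.00104), within a range of 0.00104 to 0.445. BBC3, which encodes the p53-induced protein PUMA, was at 7.95, 6.49 and 6.01 FPKM against 4.97, 4.62 and 5.41 FPKM, with a log2 fold change of 0.38 (adjusted p = 0.253). It passed narrowly when the fit held only these groups (adjusted p = 0.0479, in a range of 0.0479 to 0.469).

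**Figure D3:**
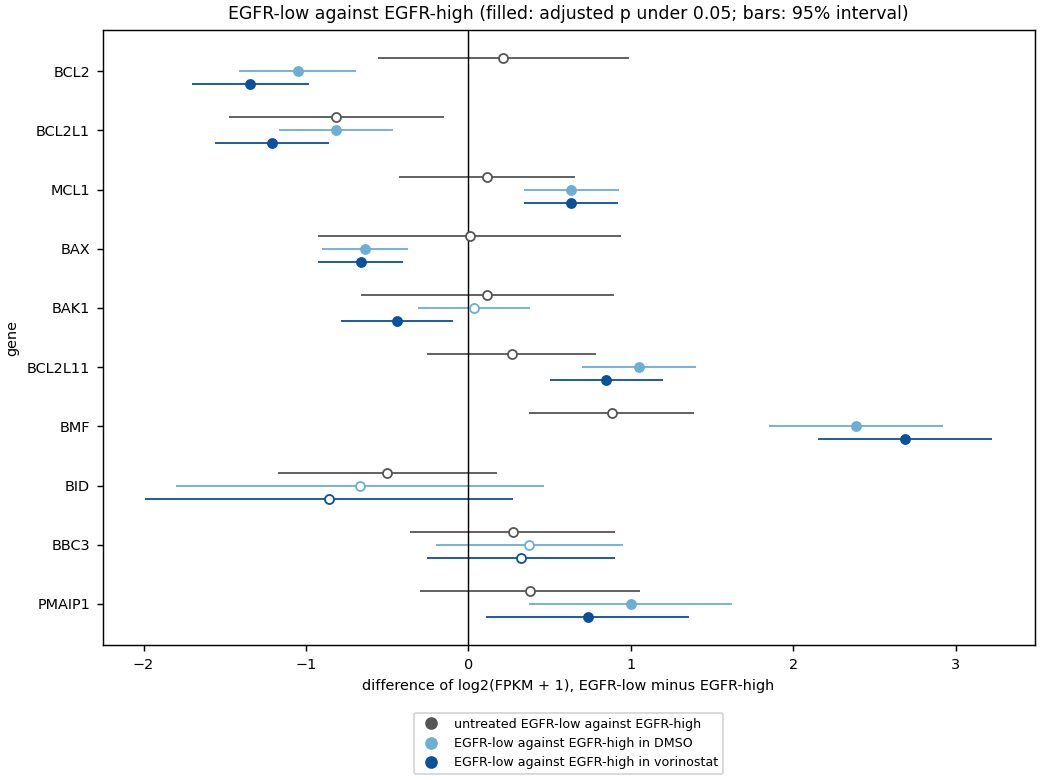
Log2 fold change of EGFR-low against EGFR-high cells for the 10 genes, untreated, in DMSO and in vorinostat. Points are limma estimates on log2(FPKM + 1), bars are 95% intervals and filled points passed an adjusted p of 0.05. BMF has the largest positive estimate of the 10 genes in all 3 comparisons, at 0.88, 2.39 and 2.69.

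Ratios within a library restate the differences above in a form that scaling between libraries does not change. They were formed after the values were seen and were not tested. BCL2L11 stood at 0.153 ± 0.0492 of the BCL2L1 level in EGFR-low DMSO cells and at 0.0370 ± 0.0109 of it in EGFR-high DMSO cells (mean ± SD, n = 3). The ranges were 0.0965 to 0.184 and 0.0290 to 0.0494, so they did not overlap. MCL1 stood at 1.35 ± 0.316 times the BCL2L1 level in EGFR-low DMSO cells and at 0.486 ± 0.0938 times in EGFR-high DMSO cells. In untreated cells, MCL1 stood at 1.18 ± 0.0842 times the BCL2L1 level in EGFR-low cells and 0.626 ± 0.163 times in EGFR-high cells, again without overlap. MCL1 was thus the more abundant guardian RNA in these EGFR-low libraries, apart from the intermediate one (0.989), and BCL2L1 in all EGFR-high ones. Parental cells, at 0.974, 0.659 and 1.65 times, spanned the untreated EGFR-low values and overlapped the EGFR-high ones, and their BCL2L11 to BCL2L1 ratios (0.0663 to 0.186) overlapped both as well. The summed BH3-only RNA is a level and not a ratio, so it does depend on that scaling. It was 82.0 ± 3.57 FPKM in EGFR-low DMSO cells and 45.9 ± 5.97 FPKM in EGFR-high DMSO cells, while in untreated cells it was 40.3 ± 4.94 and 39.3 ± 6.62 FPKM.

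Under vorinostat, the difference between the lines took in 8 of the 10 genes, 4 higher and 4 lower in EGFR-low cells. Over all genes 59.0% were called, 36.2% higher and 22.8% lower, and the share of calls that were higher went from 61.3 to 50.5% with median-of-ratios scaling. The libraries did not overlap for 8 of the 10 genes and for 60.8% of all genes. The calls numbered 8 as well with the replicate number as a block, which same-numbered libraries of these groups allowed. Over all 12236 genes the block took the calls from 7222 to 7632.

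BMF was at 35.9, 33.6 and 32.5 FPKM in EGFR-low vorinostat cells and 5.49, 4.82 and 3.26 FPKM in EGFR-high vorinostat cells, a mean 7.53 times higher with a log2 fold change of 2.69 (SE 0.25, adjusted p = 3.82e-05). BCL2L11 was at 10.7, 11.9 and 10.8 FPKM against 6.27, 4.78 and 6.28 FPKM, with a log2 fold change of 0.85 (SE 0.16, adjusted p = 0.000782). Neither overlapped, so both BH3-only genes kept to the EGFR-low side in either medium. MCL1 was at 78.3, 89.5 and 89.6 FPKM against 52.8, 46.9 and 66.7 FPKM (log2 fold change 0.63, adjusted p = 0.00163). BCL2L1 was at 60.8, 52.6 and 58.2 FPKM against 154.1, 116.5 and 132.8 FPKM (log2 fold change -1.21, adjusted p = 8.29e-05). BCL2 was at 0.341, 0.389 and 0.349 FPKM against 2.74, 2.32 and 2.30 FPKM (log2 fold change -1.34, adjusted p = 5.83e-05). MCL1 and BCL2L1 thus kept the directions they had under DMSO. So did BCL2, which passed the filter through EGFR-high libraries alone and was called with no filter too (adjusted p = 0.000175). BAX was at 62.9, 66.8 and 61.2 FPKM against 92.0, 116.9 and 96.6 FPKM (log2 fold change -0.66, adjusted p = 0.000621), without overlap.

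The remaining calls under vorinostat were less firm. PMAIP1 was at 38.0, 29.9 and 29.0 FPKM in EGFR-low cells and 26.2, 10.5 and 24.2 FPKM in EGFR-high cells, giving a log2 fold change of 0.73 (adjusted p = 0.0435). It was called in 10 of 23 alternatives, with an adjusted p from 0.0153 to 0.158, and was lost with median-of-ratios scaling (0.128), quantile normalization (0.0885), no filter (0.0739), only the compared groups in the fit (0.0931) and without EGFR-high vorinostat replicate 2 (log2 fold change 0.34, adjusted p = 0.158). Leaving out EGFR-high DMSO replicate 2 or any EGFR-low library, DMSO or vorinostat, also ended it (adjusted p from 0.0508 to 0.13), as did leaving out both intermediate libraries (0.0511). BAK1 was at 8.86, 7.96 and 9.16 FPKM in EGFR-low cells and 15.3, 10.9 and 10.5 FPKM in EGFR-high cells, giving a log2 fold change of -0.44 (adjusted p = 0.031). The highest BAK1 value was in EGFR-high vorinostat replicate 1, without which the log2 fold change was -0.28 (adjusted p = 0.0981). That library also held CDH5 at 8.02 FPKM, against 2.20 to 4.83 FPKM in the other 11 of the experiment, and the part of this in the BAK1 value was not tested. Leaving out EGFR-low vorinostat replicate 1, 2 or 3 also ended the BAK1 call (adjusted p = 0.0542, 0.102 and 0.0517), as did a fit of only these groups (0.0734), and without replicate 1 of both vorinostat groups it was -0.30 (adjusted p = 0.117, the highest over its alternatives, from 0.0169).

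BID and BBC3 were not called under vorinostat, and libraries far from the rest of their group widened the spread. BID was at 2.27, 9.73 and 12.7 FPKM in EGFR-low vorinostat cells and at 5.35, 20.4 and 20.0 FPKM in EGFR-high vorinostat cells. In both lines replicate 1 was the lowest, and these are the libraries that stood apart on principal component 2. The log2 fold change was -0.86 with all libraries (95% interval -1.99 to 0.28, adjusted p = 0.175) and -0.81 without replicate 1 of both vorinostat groups (adjusted p = 0.00106). Without EGFR-high vorinostat replicate 1 alone it was -1.44 (adjusted p = 0.0182, in a range of 0.00106 to 0.673). That is the largest BID difference over the alternatives, and the smallest was -0.23. BBC3 was at 8.24, 6.29 and 7.49 FPKM against 3.49, 4.88 and 10.0 FPKM, a log2 fold change of 0.32 (adjusted p = 0.31). EGFR-high vorinostat replicate 3 held the highest BBC3 value, and without it the log2 fold change was 0.69 (adjusted p = 0.00682, in a range of 0.00682 to 0.919). Without replicate 1 of both vorinostat groups the BBC3 value turned to -0.03 (adjusted p = 0.919).

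Vorinostat against DMSO asks what the drug did within each line, and no gene of the family passed. In EGFR-low cells limma called 0 of the 10 genes and 0% of all genes, with an unadjusted p under 0.05 for 1 of the 10 and for 115 of 12236 genes. That gene was BMF, at 17.5, 28.8 and 23.5 FPKM in DMSO and 35.9, 33.6 and 32.5 FPKM in vorinostat, with a log2 fold change of 0.56 (95% interval 0.02 to 1.09, adjusted p = 1) that was 0.37 without both intermediate libraries. The lowest BMF value in DMSO was that of the intermediate library. BMF, BCL2L1 and MCL1 were the 3 genes without overlap, against 9.46% of all genes, and BCL2L1 and MCL1 had log2 fold changes of -0.33 and -0.16. The BCL2L1 value was -0.17 without both intermediate libraries, and the MCL1 value -0.10 without replicate 1 of both vorinostat groups. BCL2L11 overlapped, with a log2 fold change of 0.06 (95% interval -0.29 to 0.41) that was -0.06 without both intermediate libraries. The replicate number as a block called none of the 10 either, and 0 of all genes.

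In EGFR-high cells limma again called 0 of the 10 genes and 0% of all genes, with an unadjusted p under 0.05 for 1 of the 10 and for 409 genes. That gene was BAK1, at 10.4, 8.48 and 7.98 FPKM in DMSO and 15.3, 10.9 and 10.5 FPKM in vorinostat, with a log2 fold change of 0.40 (95% interval 0.06 to 0.75, adjusted p = 0.94) that was 0.24 without replicate 1 of both vorinostat groups. BAK1 and BCL2 were the 2 genes without overlap, against 5.33% of all genes, and BCL2 had a log2 fold change of 0.20. BCL2L11 was at 4.08, 4.26 and 5.65 FPKM in DMSO and 6.27, 4.78 and 6.28 FPKM in vorinostat. Its values overlapped, and its log2 fold change of 0.26 had a 95% interval of -0.09 to 0.61. BID had a log2 fold change of -0.57 in EGFR-low and -0.38 in EGFR-high cells with all libraries, and of 0.06 and 0.20 without replicate 1 of both vorinostat groups.

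The effect of vorinostat was not shown to differ between the lines. The test of that difference by limma called 0 of the 10 genes and 0% of all genes, with an unadjusted p under 0.05 for 0 of the 10 and for 215 genes. The estimates for the 10 genes ran from -0.48 for BAK1 to 0.30 for BMF on the log2 scale. For BCL2L11 the estimate was -0.20 (95% interval -0.70 to 0.29). Without both intermediate libraries the BMF estimate turned to -0.15 and the BCL2L11 estimate was -0.45. Without replicate 1 of both vorinostat groups the latter was -0.12. The widest interval was that of BID, from -1.79 to 1.41. Replicates 2 and 3 of the vorinostat groups lay close to DMSO libraries, as described above, and their part in these counts was not tested. Without replicate 1 of both vorinostat groups, 0 of the 10 genes and 0 of all genes were called in each of these 3 comparisons.

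**Figure D4:**
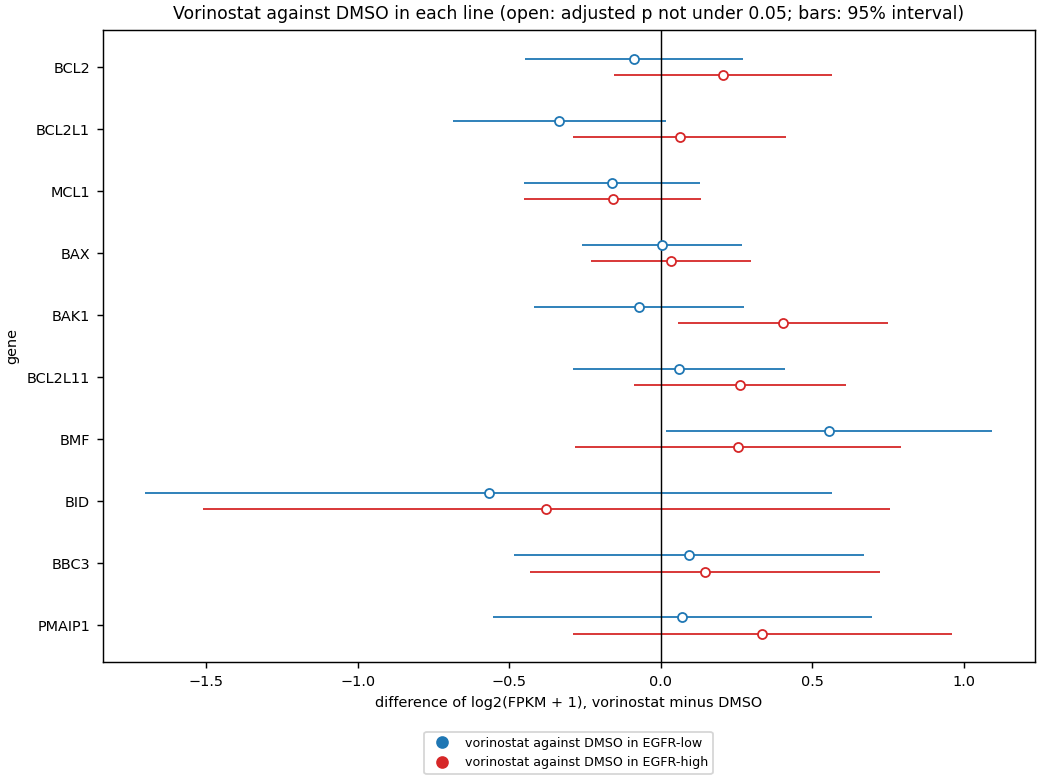
Log2 fold change of vorinostat against DMSO for the 10 genes in EGFR-low and EGFR-high cells. Points are limma estimates on log2(FPKM + 1) and bars are 95% intervals. No point passed an adjusted p of 0.05, and the bars of BID are the widest, from -1.70 to 0.57 in EGFR-low cells.

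The mean BCL2L11 level was higher in both EGFR-low groups than in both EGFR-high groups. Within the vorinostat experiment the means were 11.1 ± 0.696 FPKM in EGFR-low vorinostat cells, 10.7 ± 1.66 in EGFR-low DMSO cells, 5.78 ± 0.863 in EGFR-high vorinostat cells and 4.66 ± 0.862 in EGFR-high DMSO cells. The step from EGFR-low DMSO to EGFR-high vorinostat cells was the only 1 of the 3 between neighbours at which the libraries did not overlap. In each line the vorinostat mean was above the DMSO mean, by differences that did not pass, and in EGFR-low cells the sign turned without both intermediate libraries, as given above. Whether all vorinostat libraries were treated was not tested. In untreated cells the means were 7.46 ± 1.04 FPKM in EGFR-low, 6.08 ± 1.33 in EGFR-high and 5.13 ± 0.998 in parental cells, and both neighbouring pairs overlapped. Over all 21 libraries, with the mean of each experiment removed, the gene whose levels were most like those of BCL2L11 was CDH1, the gene for E-cadherin, with a Pearson r of 0.940 among 11117 genes. SH3PXD2B (0.937), CREB3L2 (0.936), RNF213 (0.935) and TBL1X (0.935) followed. Of the family, BMF ranked 15 with 0.924, MCL1 reached 0.821, and BCL2L1 and BCL2 had values of -0.735 and -0.550. These libraries share lines and experiments, so the values describe the split between lines and are given with no p.

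The other genes of the apoptosis pathway were read from lists written from general knowledge. In the untreated experiment limma called 0 of the 88 genes tested in the 7 lists. An unadjusted p under 0.05 was found for 10 of them between EGFR-low and EGFR-high cells, 14 between EGFR-low and parental cells and 5 between EGFR-high and parental cells. Of all 11305 genes, 1529, 1668 and 1093 had such a p in these comparisons, and 3.81, 1.60 and 0.0708% were called. In the vorinostat experiment 48 of 95 were called between the lines in DMSO and 60 of 95 in vorinostat, where 51.8 and 59.0% of all genes were. Beside the lists below, 31.1% of all genes were called higher and 20.7% lower in DMSO, with a median log2 fold change of 0.12, and 36.2 and 22.8% in vorinostat, with a median of 0.16. The excess of higher calls over all genes was nearly gone with median-of-ratios scaling, as given above, and the lists were not fitted with it. Under DMSO, the 16 genes of the apoptosome and caspases, the machinery that dismantles the cell after cytochrome c is released, had 8 genes higher and 1 lower in EGFR-low cells. Their median log2 fold change was 0.34 beside 0.12 for all genes. The executioner caspase CASP6 was higher by 1.17 and the initiator caspase CASP10 by 1.19, where untreated cells gave 0.49 and -0.33, neither of them called. Under vorinostat 10 genes of this list were higher and 2 lower, with a median of 0.47 beside 0.16.

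Other members of the BCL2 family divided. Of 9 tested, 2 were higher and 2 lower in DMSO and likewise in vorinostat, with medians of -0.09 and -0.12. BNIP3, which acts in mitophagy and is induced by hypoxia, was at 56.5, 57.2 and 54.7 FPKM in EGFR-low DMSO cells and 8.28, 8.39 and 28.1 FPKM in EGFR-high DMSO cells, a log2 fold change of 2.07 (adjusted p = 0.000746). BNIP3 was not called in untreated cells, at 13.7, 24.5 and 23.3 FPKM in EGFR-low and 15.3, 22.1 and 16.2 FPKM in EGFR-high cells. HRK, a further BH3-only gene, was at no more than 0.350 FPKM in EGFR-low cells of that experiment and passed the filter only through EGFR-high libraries. It had a log2 fold change of -0.67 in DMSO (adjusted p = 0.00438, and 0.00339 with no filter) and -1.31 in vorinostat (adjusted p = 5.61e-05, and 0.000157 with no filter). Of the 8 inhibitors of apoptosis tested, 1 was higher and 1 lower in DMSO, and 2 higher and 3 lower in vorinostat, with medians of -0.02 and -0.17. CFLAR, which blocks caspase-8 at death receptors, was higher by 0.96 in DMSO and 0.80 in vorinostat but not in untreated cells (10.3, 13.6 and 8.19 FPKM in EGFR-low and 17.3, 17.5 and 10.4 FPKM in EGFR-high cells, log2 fold change -0.45, not called), and BIRC5 (survivin) was called in vorinostat with 0.96. NAIP was called lower in both DMSO and vorinostat, and was not called in untreated cells.

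Death receptors and their ligands had 4 genes higher and 2 lower of 11 tested in DMSO (median 0.37), and 5 higher and 2 lower in vorinostat (median 0.35), or 6 and 7 of 11 called, where 51.8 and 59.0% of all genes were. TNFRSF21, a receptor with a death domain, was at 61.7, 39.0 and 34.3 FPKM in EGFR-low DMSO cells and 210.6, 154.9 and 126.4 FPKM in EGFR-high DMSO cells, a log2 fold change of -1.86 (adjusted p = 0.000327). TNFRSF21 was not called in untreated cells, at 122.6, 90.8 and 125.9 FPKM in EGFR-low and 119.2, 104 and 129.2 FPKM in EGFR-high cells. The decoy receptors for TRAIL split, with TNFRSF10D lower by a log2 fold change of -1.53 and TNFRSF10C higher by 1.07 in DMSO. In untreated cells TNFRSF10D had a log2 fold change of -0.01, and TNFRSF10C, too low to be tested, was at no more than 0.0800 FPKM in EGFR-low and 0.196 to 0.371 FPKM in EGFR-high cells.

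Among the 17 transcription factors tested that act on family genes, 6 were higher and 2 lower in DMSO (median 0.38), and 7 higher and 4 lower in vorinostat (median 0.47), or 8 and 11 of 17 called beside the same 51.8 and 59.0%. FOXO3, a forkhead factor known to drive BCL2L11, was lower in EGFR-low DMSO cells, and its part in the BCL2L11 level was not tested. FOXO3 was at 14.9, 9.26 and 10.6 FPKM in EGFR-low DMSO cells and 25.8, 27.5 and 22.9 FPKM in EGFR-high DMSO cells, a log2 fold change of -1.09 (adjusted p = 0.000586). DDIT3, the stress factor CHOP, was at 70.1, 53.6 and 90.0 FPKM against 11.6, 13.5 and 21.6 FPKM, a log2 fold change of 2.14 (adjusted p = 0.00482). TP63, the p53 relative of basal epithelium, was at 10.1, 5.46 and 9.42 FPKM against 0.113, 0.0978 and 5.39 FPKM, a log2 fold change of 2.19 (adjusted p = 0.0052). The EGFR-high library with TP63 at 5.39 FPKM was the intermediate one. Among DMSO libraries, TP63 reached 1 FPKM in every EGFR-low one and in only that EGFR-high one. Whether its call held with no filter was not examined.

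Of the 20 p53 target genes, 8 were higher and 3 lower in DMSO (median 0.30), and 9 higher and 3 lower in vorinostat (median 0.39). These 11 and 12 calls of 20 are near the 51.8 and 59.0% of all genes. CDKN1A was higher by a log2 fold change of 1.77 in DMSO (adjusted p = 0.0305) and 1.67 in vorinostat (adjusted p = 0.0351), and neither call held with no filter (adjusted p = 0.0623 and 0.0683). The value in vorinostat was 2.57 without EGFR-high vorinostat replicate 1 and 2.33 without replicate 1 of both vorinostat groups (adjusted p = 0.000203 and 0.000732), in fits added after seeing the data. PLK2, a kinase gene induced by p53, went the other way, at 19.5, 4.51 and 5.05 FPKM in EGFR-low DMSO cells and 116, 73.6 and 52.7 FPKM in EGFR-high DMSO cells, a log2 fold change of -3.14 (adjusted p = 0.000396). Genes for the turnover and binding of MCL1, BIM and BMF had 4 higher and 4 lower of 14 in DMSO (median -0.0035) and 4 higher and 5 lower in vorinostat (median 0.04). USP9X, which removes ubiquitin from MCL1, was higher by 1.02 in DMSO, and TRIM17, a ubiquitin ligase for MCL1, was lower by a log2 fold change of -0.92 in DMSO and -1.27 in vorinostat. CUL3 and BTRC were among the 3 largest calls of this list in both DMSO and vorinostat. The part of any of these genes in the MCL1 level was not tested. In untreated cells USP9X had -0.03 and TRIM17 0.55, neither of them called. For vorinostat against DMSO in either line, and for the difference of those effects, limma called 0 of the 95 genes, with an unadjusted p under 0.05 for 0 of them in EGFR-low cells, for 3 in the EGFR-high line and for 1 in the test of the difference. Of all 12236 genes 0 were called, and 115, 409 and 215 had such a p.

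**Figure D5:**
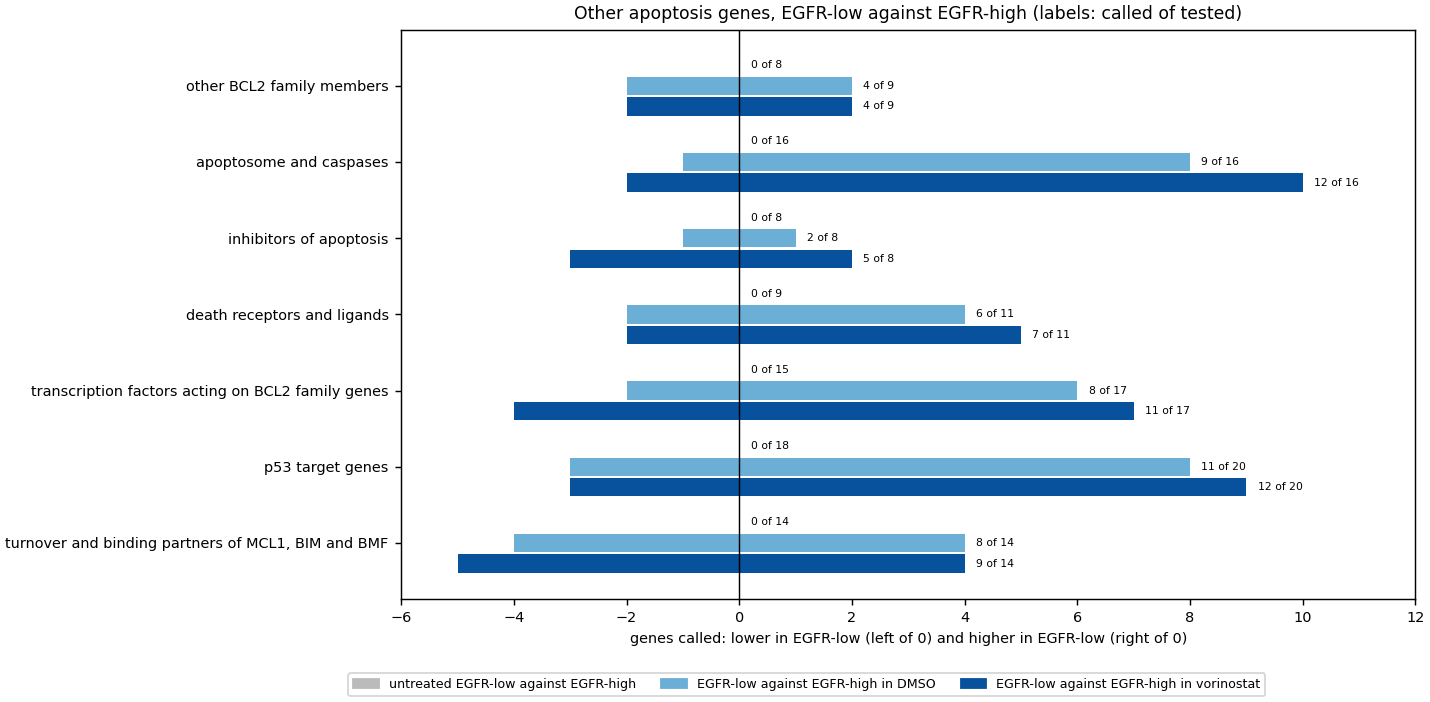
Calls between EGFR-low and EGFR-high cells in the 7 apoptosis lists, untreated, in DMSO and in vorinostat. Bars to the right of 0 count genes called higher in EGFR-low cells, bars to the left count those called lower, and the label of each bar gives the genes called of those tested. Untreated cells have no bar, as 0 genes were called. The apoptosome and caspase list has 9 of 16 in DMSO and 12 of 16 in vorinostat, where 51.8 and 59.0% of all genes were called.

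Some limits belong to the genes themselves. In GENCODE, a gene on the other strand overlaps BCL2L11 (MIR4435-2HG), BMF (BMF-AS1), BCL2, BCL2L1, BAK1 and BBC3, and BAK1 has 2 named pseudogenes. Whether the counting used the strand is not given, so RNA of the overlapping genes cannot be told apart here. Values per gene also join the transcript forms of BCL2L1, MCL1 and BCL2L11, whose protein products can differ in activity, and protein levels were not analysed here.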

How the data were processed

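RNA of 21 libraries in 7 groups of 3 was analysed. The values are FPKM, as inferred from the deposited values, made by the authors with Cufflinks 2.2.1 on hg19 per the labels. Their naming says counts, which the values are not, and the depth is unknown. In each experiment, genes reaching 1 FPKM in 3 or more libraries (11305 untreated, 12236 vorinostat) were tested. The limma package (3.58.1, R 4.3.3) fitted a mean per group to log2(FPKM + 1), with lmFit and eBayes with a trend. P-values were adjusted by Benjamini-Hochberg over all genes of a comparison, and genes with an adjusted p under 0.05 were called. The fit was tested on simulated data, the outcome of which is not given here. Single genes also had an exact two-sided permutation test, whose smallest p is 0.1.

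The paper calls biological replicates independent experiments at different times, and the p-values measure the spread between these libraries. To see whether replicate numbers pair libraries, the residuals of libraries with the same number were correlated over genes. For the untreated lines r was 0.343, 0.730 and 0.689, for the drug in EGFR-low cells 0.267, 0.302 and 0.329, and for the lines under vorinostat 0.353, 0.351 and 0.163, and these were taken as paired. At least 1 pair fell under 0.1 in every other comparison.

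The members, and the 7 lists of other apoptosis genes and 4 lists of markers, were chosen with earlier results of these data known. In each list, up to 3 called genes with the largest change could be named, and EGFR was named as a check of the labels. List symbols were matched by current and older names, all but PECAM1. Alternatives changed the pseudocount (0.1 or 5), the filter (none, or 5 FPKM), the scaling (median-of-ratios or quantile normalization) or the fit (a block for replicate number, no trend, or no groups beyond those compared), or left out each library in turn. Leaving out both intermediate DMSO libraries, or replicate 1 of both vorinostat groups, was chosen after seeing the data, as were the fits of CDKN1A and HRK.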

Additional observations from a re-analysis of the deposited data

How the results depend on the processing

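The number of family genes called held within 1.5 times, in each comparison, except in the untreated ones against EGFR-low cells. For EGFR-low against EGFR-high cells it went from 0 to 1, BMF, with a pseudocount of 5, median-of-ratios scaling, quantile normalization and the replicate number as a block, and from 0 to 1 over the fits without each library. Between EGFR-low and parental cells it went from 1 to 0 with a filter of 5 FPKM, under which BMF was not tested, and ran from 0 to 1 over the fits without each library. The cause of the other changes was not tested. For single family genes no call reversed its direction, 24 fits lost a call, 11 gained one, and 66 changed the sign of a value that was not called in either fit.

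Counts over all genes moved more. For untreated EGFR-low against EGFR-high cells 431 calls became 660 with no filter, 206 with a filter of 5 FPKM and 174 without EGFR-low replicate 1. For EGFR-low against parental cells 181 became 331, 82, 525 with the block, 106 with only the compared groups and 33 without EGFR-low replicate 1. For EGFR-high against parental cells 8 became 15 with no filter, 3 with a filter of 5 FPKM, 2 with only the compared groups and 2 without EGFR-high replicate 2 or 3 or parental replicate 3. For vorinostat against DMSO in EGFR-low cells, and for the difference of the drug's effect between lines, 0 became 1 with no filter. The unknown depth limits what can be said of genes near 0 FPKM.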
